A study of Homo sapiens with 6 samples.

Results

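The genes described here are the 9 human acyltransferases that make phosphatidic acid from glycerol-3-phosphate: AGPAT1, AGPAT2, AGPAT3, AGPAT4, AGPAT5, GPAM, GPAT2, GPAT3 and GPAT4. They were taken as a fixed list of members, 9 of 20037 protein-coding genes on the chromosomes, and their data are the peaks that overlap each GRCh38 gene span or the 10 kb on either side of it. Accessibility was measured by ATAC-seq, in which a transposase cuts open chromatin and the cut fragments are sequenced, in NCI-H1703, an established human line from a lung squamous cell carcinoma. One group of 3 libraries came from cells with silenced DLGAP1-AS2, a long non-coding RNA, with titles that abbreviate the treatment as ASO, and the other group of 3 libraries is labelled control, with titles that read NC. All libraries share the cell line and the preparation (10000 to 50000 cells each, paired reads of 150 bases), and the labels give no genotype, dose or time. Nothing says that the libraries came from separate cultures, so the p-values measure only the spread between these libraries, which may be technical. The series title names phosphatidic acid synthesis and YAP signalling, and the question put to these genes was whether their chromatin differed between the groups.

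Phosphatidic acid is the branch point of glycerolipid synthesis, from which cells make triglycerides and membrane phospholipids, and it also acts as a lipid signal. Glycerol-3-phosphate acyltransferases (GPATs) add the first acyl chain and give lysophosphatidic acid. Acylglycerol-phosphate acyltransferases (AGPATs) add the other chain and give phosphatidic acid. GPAM, also known as GPAT1, and GPAT2 sit on the mitochondrial outer membrane, whereas GPAT3 and GPAT4 sit in the endoplasmic reticulum. An accessible gene start marks a promoter that can be bound, and it is not a measure of expression.

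The lists held 91346 to 170882 peaks per library. They were not limited to a low FDR: the highest deposited FDR of a list was 0.488 (silenced replicate 3) to 0.610 (control replicate 2). Low peaks, and the peak numbers that count them, thus include weakly supported calls. In both groups the height of a peak, which is the authors' pileup, depended on the library. Among the 12004 protein-coding genes whose span has a peak at most 1 kb from either end in every library (a gene-end peak), the median height was 36, 43 and 19 for silenced replicates 1 to 3 and 38, 43 and 39 for control replicates 1 to 3. Silenced replicate 3 thus stood apart by its low heights, and control replicate 2 by its short list, which held no peak lower than 3. In the main fits heights were therefore compared between groups as ranks within a list, and peak numbers were tested apart. Heights are also given as deposited, and since the 2 libraries differ from the rest over all genes, an order of raw heights across libraries describes the lists and is no comparison of groups. Of 6 squamous markers, SOX2 had a peak near a gene end in all 6 libraries, KRT6A in none, and TP63, KRT5, KRT14 and DSG3 in some, with heights of 2 to 5. The blood markers PTPRC and CD3E had such a peak in 2 and 3 libraries, with heights of 2 to 5. The mesenchymal markers VIM, CDH2 and ZEB1 and the lung markers NKX2-1 and NAPSA had one in all 6. Peak lists carry no RNA levels, so the silencing of DLGAP1-AS2 was not checked here.

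The sequences below are the promoters that the results turn on, each 250 bases before to 50 bases after a start listed by RefSeq (GRCh38.p14), written 5′ to 3′ along the gene. Of the members, 7 of 9 were matched by symbol, and AGPAT5 and GPAT4 are named only. Capitals mark matches, on either strand, to GGAATG (TEAD), TGANTCA (AP-1), GGGCGG (GC box), CCAAT (the box of that name), CCGGAA (ETS), GCGCATGC (NRF1), TCACNCCAC (SREBP), CACGTG (E-box) and AAGATGGCG (YY1). The first 6 promoters lay under a peak in all 6 libraries, and the last, of GPAT2, lay under none.
AGPAT1 outermost start (chr6:32178059-32178358, minus strand): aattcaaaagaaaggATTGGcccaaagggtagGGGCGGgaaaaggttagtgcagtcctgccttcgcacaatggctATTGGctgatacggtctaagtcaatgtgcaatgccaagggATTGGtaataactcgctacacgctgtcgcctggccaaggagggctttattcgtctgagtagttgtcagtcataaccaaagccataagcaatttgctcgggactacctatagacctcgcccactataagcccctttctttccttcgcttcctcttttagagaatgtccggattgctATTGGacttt
AGPAT1 inner start (chr6:32176035-32176334, minus strand): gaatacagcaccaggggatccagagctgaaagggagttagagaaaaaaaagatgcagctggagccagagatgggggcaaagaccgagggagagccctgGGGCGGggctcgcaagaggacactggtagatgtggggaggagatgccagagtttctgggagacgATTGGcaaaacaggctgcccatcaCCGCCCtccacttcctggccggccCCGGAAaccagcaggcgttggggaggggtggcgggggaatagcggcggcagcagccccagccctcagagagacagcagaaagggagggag
AGPAT2 (chr9:136687408-136687707, minus strand): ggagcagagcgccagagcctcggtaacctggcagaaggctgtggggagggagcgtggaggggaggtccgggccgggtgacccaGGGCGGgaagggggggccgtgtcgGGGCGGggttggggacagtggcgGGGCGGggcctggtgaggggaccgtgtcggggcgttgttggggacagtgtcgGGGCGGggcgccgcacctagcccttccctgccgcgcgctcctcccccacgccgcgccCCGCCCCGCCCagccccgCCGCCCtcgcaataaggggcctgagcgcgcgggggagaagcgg
AGPAT4 (chr6:161274012-161274311, minus strand): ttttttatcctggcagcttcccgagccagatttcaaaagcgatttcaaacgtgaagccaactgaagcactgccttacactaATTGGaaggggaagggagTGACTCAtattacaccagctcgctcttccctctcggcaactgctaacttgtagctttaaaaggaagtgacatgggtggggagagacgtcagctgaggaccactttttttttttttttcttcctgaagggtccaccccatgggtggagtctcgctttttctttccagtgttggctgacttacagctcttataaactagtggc
GPAM (chr10:112183716-112184015, minus strand): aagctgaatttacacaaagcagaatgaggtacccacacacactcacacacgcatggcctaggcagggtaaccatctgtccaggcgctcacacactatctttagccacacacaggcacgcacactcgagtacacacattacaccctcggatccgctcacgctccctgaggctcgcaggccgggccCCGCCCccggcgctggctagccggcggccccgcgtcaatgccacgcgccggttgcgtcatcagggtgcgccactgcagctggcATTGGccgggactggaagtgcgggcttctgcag
GPAT3 (chr4:83535857-83536156, plus strand): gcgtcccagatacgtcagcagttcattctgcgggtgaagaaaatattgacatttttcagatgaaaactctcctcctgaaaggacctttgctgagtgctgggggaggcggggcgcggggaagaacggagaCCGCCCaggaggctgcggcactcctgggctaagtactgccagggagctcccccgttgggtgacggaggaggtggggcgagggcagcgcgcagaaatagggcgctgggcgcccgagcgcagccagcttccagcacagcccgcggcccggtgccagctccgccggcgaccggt
GPAT2 innermost start (chr2:96034867-96035166, minus strand): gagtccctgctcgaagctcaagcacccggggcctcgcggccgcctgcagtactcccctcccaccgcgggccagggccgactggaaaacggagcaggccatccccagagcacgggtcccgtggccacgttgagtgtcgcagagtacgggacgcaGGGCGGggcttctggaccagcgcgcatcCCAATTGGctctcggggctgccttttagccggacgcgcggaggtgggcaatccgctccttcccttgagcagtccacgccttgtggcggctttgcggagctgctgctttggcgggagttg

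The promoters under peaks did not share one composition. The AGPAT2 promoter had 33 CpG dinucleotides and 7 GC boxes, a match that 45.0% of all 35116 listed promoters hold. The outermost AGPAT1 promoter had 11 CpG dinucleotides, 1 GC box and 4 CCAAT boxes, a match held by 34.6% of promoters. The AGPAT4 promoter had 7 CpG dinucleotides, with an AP-1 match (TGACTCA) whose first base lies at -151 relative to the start. The searched letters TGANTCA, with N any base, are held by 7.7% of promoters. The inner AGPAT1 promoter had the single ETS match, which 17.2% of promoters hold. GPAM and GPAT3 had 23 and 25 CpG dinucleotides and 1 GC box each. Across all listed promoters the median was 14 CpG dinucleotides. The innermost GPAT2 promoter, with 28 CpG dinucleotides, 1 GC box and 2 overlapping CCAAT boxes, was as rich in CpG as those of GPAM and GPAT3 but lay under no peak. None of these 7 sequences held the TEAD, NRF1, SREBP, E-box or YY1 letters, which occur in 14.0%, 3.1%, 1.1%, 7.3% and 1.7% of promoters. The innermost listed AGPAT1 start (32173116), which had no peak within 1 kb in any library, held 2 TEAD matches, whose first bases lie at -131 and 44 relative to it, and no other listed start of the members held one. A match is only a match of letters.

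Of the GPATs, which catalyse the entry step, GPAM is the isoform best known for insulin-responsive lipid synthesis in liver. GPAM lies on chromosome 10 (112149865 to 112227677, minus strand). Its peak did not lie at an end of the span but over its listed start, 43.9 kb inside it (region 112183253 to 112184273). The height there was 18, 27 and 9 in silenced and 21, 19 and 20 in control replicates 1, 2 and 3. The silenced libraries held both the tallest and the lowest of these peaks and enclosed the control libraries. A taller region lay beyond the far end of the gene, 43.5 kb downstream of the start (112140090 to 112140493). It had heights of 31, 27 and 15 in silenced and 28, 33 and 28 in control replicates 1, 2 and 3, and the groups overlapped.

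GPAT2, a mitochondrial isoform known mainly from testis, lies on chromosome 2 (96021946 to 96036265, minus strand). Its window of 34.3 kb held exactly 1 peak in every library, and that peak was not at a start. None of the 3 listed starts had a peak within 1 kb in any of the 6 libraries. The peak (96022707 to 96023119) lay 12.0 kb downstream of the nearest listed start, at the 3′ end of GPAT2, where it also overlapped an end of the transcribed pseudogene FAHD2CP. Its heights were 23, 37 and 15 in silenced and 29, 46 and 38 in control replicates 1, 2 and 3. The control libraries reached higher, but silenced replicate 2 lay above control replicate 1. RefSeq also lists the pseudogene copies GPAT2P1 and GPAT2P2 on chromosome 2. How reads that match several places were handled is not given in the sources used here, and the part of such reads in the absence of a start peak was not tested.

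GPAT3 and GPAT4, the isoforms of the endoplasmic reticulum, were each open at 1 end of the span in every library. GPAT3 (chromosome 4, 83535587 to 83605875, plus strand) had its peak over the listed start, in a region of 1246 bp (83535423 to 83536668). Heights there were 28, 37 and 17 in silenced and 26, 46 and 35 in control replicates 1, 2 and 3, and the groups overlapped. Weaker regions called in all 6 libraries lay 12.6 and 63.3 kb downstream of the start, with mean heights of 8.67 and 10.0. GPAT4 (chromosome 8, 41578200 to 41625001) had its peak at the lower-numbered end of its span (41577526 to 41578747). The region also overlaps the antisense gene GPAT4-AS1 near an end of its span, without telling whether that end is its start. The accessibility of the 2 genes cannot be told apart there. Heights were 36, 59 and 13 in silenced and 52, 50 and 42 in control replicates 1, 2 and 3. The silenced libraries held both the tallest of these peaks and the lowest, the latter in silenced replicate 3. An inner region of GPAT4 (41612427 to 41613135) had heights of 26, 25 and 12 in silenced and 18, 30 and 24 in control replicates 1, 2 and 3, again with overlap.

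**Figure D1:**
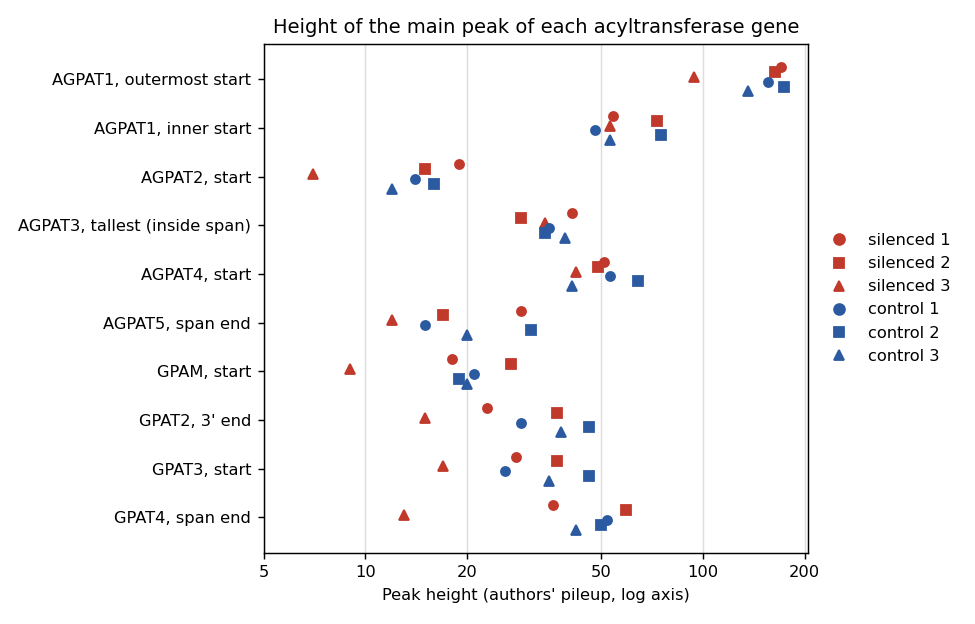
Height of the main peak of each gene (authors' pileup, log axis) in each library. Red points are silenced and blue points control libraries, with the shape giving the replicate. AGPAT1 at its outermost start is tallest in every library (94 to 174), and silenced replicate 3 (red triangles) has the lowest height at most genes.

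Among the AGPATs, AGPAT1 is a broadly expressed enzyme of the endoplasmic reticulum. It lies on chromosome 6 (32168212 to 32178108, minus strand) and had the tallest peak of the family, over the outermost of its 5 listed starts (32177605 to 32178556). Heights were 170, 163 and 94 in silenced and 156, 174 and 136 in control replicates 1, 2 and 3. In every library this peak was taller than at least 98.2% of the gene-end peaks compared. The listed start of RNF5, on the opposite strand, lies 297 bp from that of AGPAT1 and inside the same region, so the accessibility of the 2 promoters cannot be told apart. A second listed start, 2.0 kb inside the gene, also lay under a peak in all 6 libraries (32176003 to 32176324). Its heights were 54, 73 and 53 in silenced and 48, 75 and 53 in control replicates 1, 2 and 3. Here control replicate 1 was the lowest library, whereas silenced replicate 3 was the lowest at the outermost start. The remaining 3 listed starts lay under no peak. Another region shared by all libraries (32185669 to 32186010) lay 7.7 kb upstream of the outermost start, within 1 kb of an end of PBX2. It had heights of 35, 29 and 19 in silenced and 32, 42 and 12 in control replicates 1, 2 and 3.

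AGPAT2, the isoform whose loss causes congenital generalized lipodystrophy, had the start of lowest mean height (13.8) of those open in every library. The GPAM start had a mean of 19.0 but was lower than that of AGPAT2 in silenced replicate 1, at 18 against 19. It lies on chromosome 9 (136673143 to 136687457, minus strand), and its start region (136686961 to 136687690) had heights of 19, 15 and 7 in silenced and 14, 16 and 12 in control replicates 1, 2 and 3. Between 8.40% and 21.8% of the gene-end peaks compared were lower. A region 7.0 kb upstream (136694200 to 136694707) was taller than the start in every library. It had heights of 20, 25 and 14 in silenced and 29, 24 and 15 in control replicates 1, 2 and 3. The other 9 regions of its window, which also reaches the neighbouring gene EGFL7, were called in only some libraries.

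AGPAT3, an isoform of the endoplasmic reticulum and Golgi with a preference for polyunsaturated acyl chains, had, like GPAT2, no listed start that was open in every library. It spans chromosome 21 from 43865223 to 43987592 on the plus strand. Of its 2 listed starts, neither lay under a peak, and 2 libraries had a peak within 1 kb of one of them, with heights of 2 and 3. Its tallest region (43938829 to 43939586) lay inside the span, 13.8 kb downstream of the nearest listed start. Heights there were 41, 29 and 34 in silenced and 35, 34 and 39 in control replicates 1, 2 and 3, so that silenced replicate 3 was in the middle of the range. Regions 50.2 kb downstream of a listed start and 56.9 kb upstream were also called in all 6 libraries, with mean heights of 11.2 and 7.67.

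AGPAT4, a member with high levels in brain, spans chromosome 6 from 161129967 to 161274061 on the minus strand. Its start region (161273527 to 161274502) had heights of 51, 49 and 42 in silenced and 53, 64 and 41 in control replicates 1, 2 and 3. Relative to the median gene-end peak of its library, silenced replicate 3 was the highest, at 2.21 times the median against 1.05 to 1.49 in the others. AGPAT5, a mitochondrial isoform (chromosome 8, 6708642 to 6761503), had its peak at the lower-numbered end of its span (6708027 to 6708913). The region also overlaps MCPH1-AS1 near an end of its span, so the accessibility of these 2 genes cannot be told apart either. Heights were 29, 17 and 12 in silenced and 15, 31 and 20 in control replicates 1, 2 and 3, without a separation of the groups. In its whole window of 72.9 kb this was the 1 region called in all 6 libraries.

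**Figure D2:**
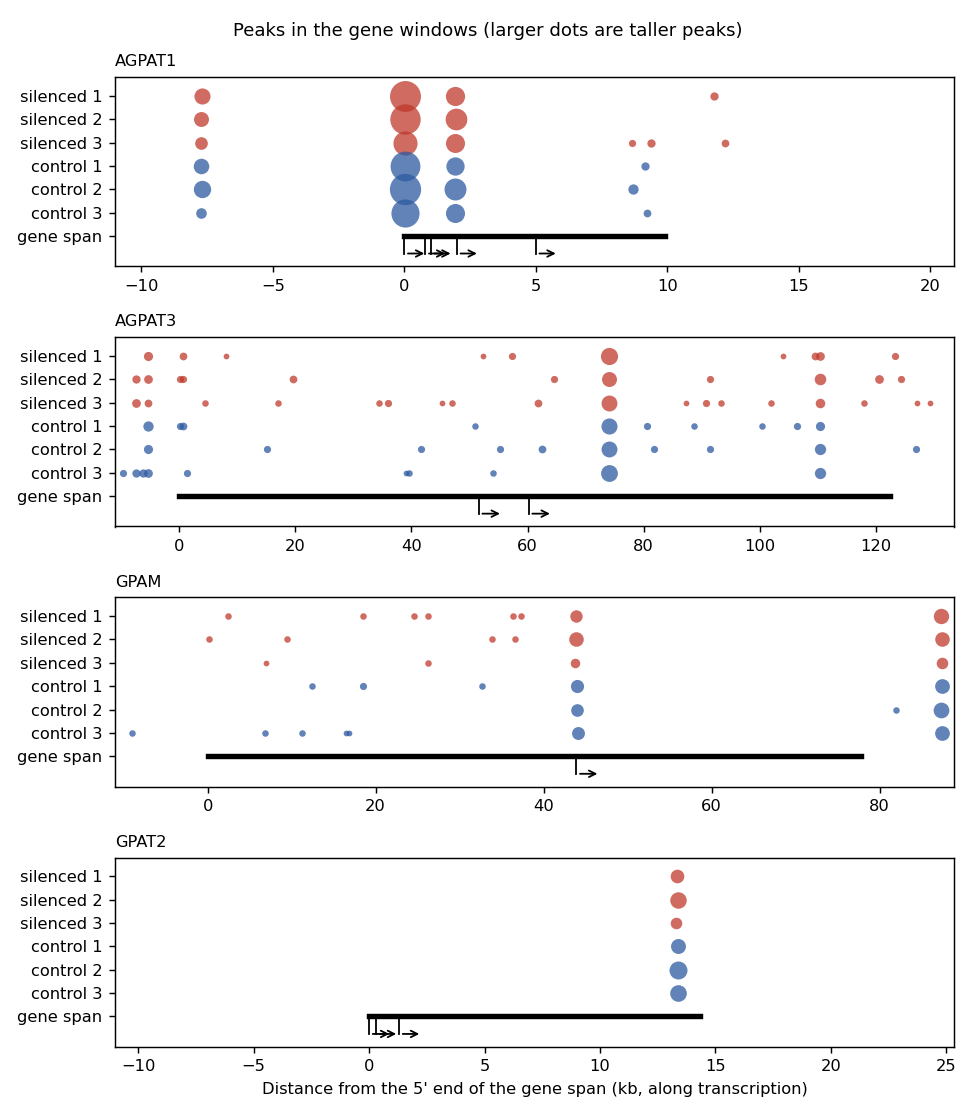
Peaks in the windows of AGPAT1, AGPAT3, GPAM and GPAT2, by library, on an axis in kb along transcription from the 5′ end of the span. Larger dots are taller peaks, the black bar is the gene span and arrows are listed starts. AGPAT1 and GPAM have peaks over listed starts, whereas the main peaks of AGPAT3 and GPAT2 lie away from theirs.

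Set against the median gene-end peak of the same library, the main peaks of the family covered a wide range. AGPAT1 stood at 3.49 to 4.95 times the median height over the 6 libraries, and its range overlapped that of no other member. AGPAT4 followed at 1.05 to 2.21 times, AGPAT3 at 0.674 to 1.79 times, GPAT4 at 0.684 to 1.37 times, and GPAT3 and GPAT2 at 0.684 to 1.07 and 0.639 to 1.07 times. AGPAT5 stood at 0.395 to 0.806, GPAM at 0.442 to 0.628 and AGPAT2 at 0.308 to 0.528 times the median. From AGPAT4 down, each gene's range overlapped that of its neighbours in this order. The GPAM value is the peak at the listed start, the GPAT2 value the peak at the 3′ end and the AGPAT3 value the tallest region inside the span. This order is one of height alone. Ranked by the deposited fold enrichment, AGPAT1 lay below AGPAT4 in the mean of both groups, and below GPAT2 in the control mean.

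The heights at gene ends were then compared between the groups. In each library the 12004 genes with a gene-end peak in every list were ranked by height, the ranks were turned into normal scores (a scale on which 1 unit is 1 SD over genes), and the scores were tested with limma. Of the members, 7 of 9 had a gene-end peak in all 6 libraries and could be tested, beside 59.9% of all protein-coding genes. The 2 that could not were AGPAT3, with such a peak in 3 libraries, and GPAM, with one in 1 library. At listed starts, 5 of 7 members had a peak in all 6 libraries, GPAM included, beside 62.6% of genes with a listed start. No member passed an adjusted p of 0.05, and neither did any other gene (0 of 12004, 0%, limma with Benjamini-Hochberg adjustment). At an unadjusted p under 0.05 there were 266 genes higher and 342 lower in silenced cells, and 0 members. In 0 of the 7 members did the groups fail to overlap, whereas 5.45% of the genes tested had every silenced library above every control library and 5.25% the reverse.

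The differences between groups (silenced minus control) were small beside their errors. AGPAT2 had the most positive, 0.229 (SE 0.213, limma adjusted p = 0.951), followed by AGPAT4 at 0.168 (SE 0.197) and AGPAT5 at 0.167 (SE 0.229). AGPAT1 stood at 0.0601 (SE 0.147) and GPAT3 at -0.0334 (SE 0.184). GPAT2 and GPAT4 had the most negative values with all libraries, -0.224 (SE 0.183) and -0.231 (SE 0.196), both with an adjusted p of 0.943 in limma. Their size rested on single libraries: GPAT4 stood at -0.0320 without silenced replicate 3 and -0.439 without silenced replicate 2, and GPAT2 at -0.111 without silenced replicate 1. With control replicate 2 left out GPAT2 stood at -0.133, and with control replicate 1 left out at -0.346. AGPAT2 stood at 0.103 without silenced replicate 1. Thus 4 members scored higher and 3 lower in silenced cells, with a median of 0.0601 beside 0.00495 over all genes tested. The differences of AGPAT1, AGPAT4, AGPAT5 and GPAT3 changed sign when single libraries were left out: without silenced replicate 1 AGPAT1 stood at -0.0637 and GPAT3 at 0.0294, without silenced replicate 3 AGPAT4 stood at -0.0480, without control replicate 1 AGPAT5 stood at -0.000968, without control replicate 2 GPAT3 stood at 0.0936, and without control replicate 3 AGPAT1 stood at -0.0340.

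Merging the 6 lists gave 169 regions in the member windows. A single list held 120 of them (71.0%), beside 74.1% of all 507440 merged regions, and 18 (10.7%) in all 6, beside 7.35%. The regions seen in 1 library were weak, with a median height of 3, whereas the 18 shared regions had mean heights from 7.67 to 149. The same rank comparison over the 37284 regions shared by all libraries called 0 regions (0%, limma adjusted p under 0.05), with 748 higher and 869 lower at an unadjusted p under 0.05, 0 of them in the member windows. Adjusted p-values of the 18 member regions ran from 0.971 to 0.999 (limma). Of the 18, 13 scored higher and 5 lower in silenced cells, with a median of 0.0738 beside -0.000494 over all shared regions. AGPAT1, AGPAT3 and GPAT3 gave 3 of the 18 each, and this count of signs was not tested. In 0 of the 18 did the groups separate, while 5.11% of shared regions had all silenced libraries higher and 4.67% all lower.

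The smallest unadjusted p among the member regions was 0.0993 (limma), at the inner AGPAT1 start, with a score difference of 0.260 (SE 0.151, adjusted p = 0.971). It stood at 0.0912 without silenced replicate 3 and 0.385 without silenced replicate 1. The region near PBX2 had a difference of 0.330 (SE 0.239), and the inner region of AGPAT3 one of 0.192 (SE 0.182). These 2 signs rested on single libraries: the former stood at -0.0693 without control replicate 3 and the latter at -0.0186 without silenced replicate 3. At the GPAM start the difference was 0.0193 (SE 0.209), and at the region beyond its far end -0.00869 (SE 0.165). The GPAM start stood at -0.114 without silenced replicate 2 and -0.0527 without control replicate 2. The far region stood at 0.0524, 0.00908 and 0.00604 without silenced replicate 2, silenced replicate 3 and control replicate 2. In the same fit the GPAT2 region stood at -0.239 (SE 0.165) and the GPAT4 end region at -0.256 (SE 0.178). Without silenced replicate 3 the GPAT4 end region stood at -0.0269, and without silenced replicate 2 at -0.457.

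**Figure D3:**
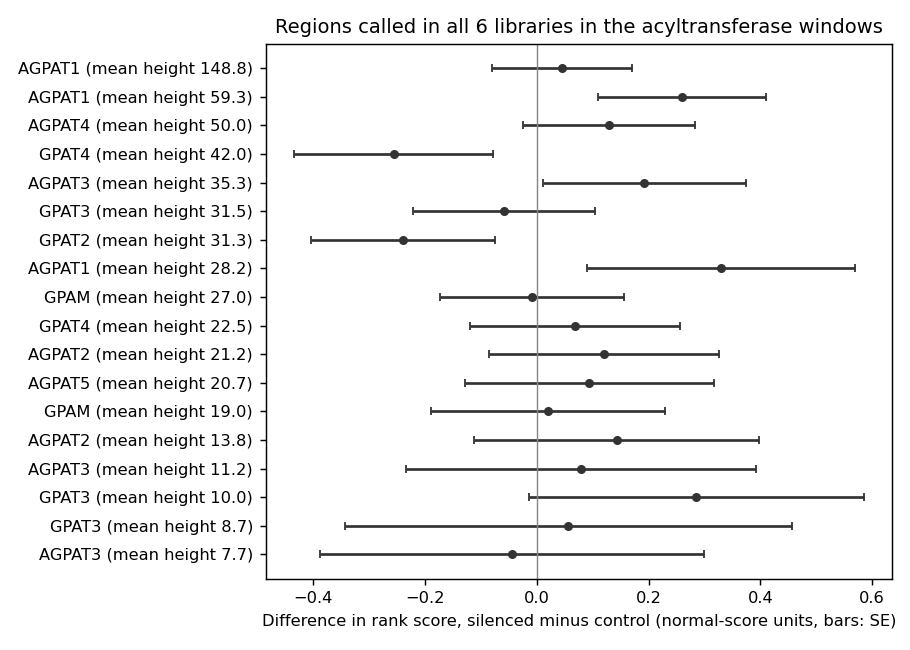
Difference in rank score (silenced minus control, normal-score units) of the 18 member regions called in all 6 libraries, ordered by mean height, with bars of 1 SE. The horizontal axis is the difference: 13 points lie to the right of 0 and 5 to the left, and none passed the test.

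Regions found by every list of a group and by no list of the opposite group were rare everywhere. They made up 0.13% of merged regions for silenced-only and 0.2% for control-only calls. In the member windows there were 0 silenced-only regions and 1 control-only region (0.592% of 169). That region lies inside AGPAT4 (chromosome 6, 161240570 to 161240932), 33.3 kb downstream of the start, and control replicates 1 to 3 gave it heights of 7, 5 and 3. In control replicate 3 its deposited FDR was 0.105, so the region was weak there. No test was made of a call by 3 libraries against 0, since an exact p of 0.1 is the least it could give. Without silenced replicate 2 the 2 kinds of region together numbered 2, and without silenced replicate 3 they numbered 4. With 1 library fewer, the condition is easier to meet.

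The number of peaks gave no separation either. The 9 windows, 732.8 kb in all, held 57, 54 and 56 peaks in silenced and 57, 42 and 56 in control replicates 1, 2 and 3. The low value belonged to control replicate 2, whose list was the shortest, and the other 5 libraries lay within 3 peaks of each other. Silenced libraries averaged 55.7 ± 1.53 peaks and control libraries 51.7 ± 8.39 (SD, n = 3 in each group), which differ by 4 peaks (two-sided exact permutation p = 0.9, adjusted p = 0.9 over 2 exact tests). With 3 libraries against 3 this test cannot go below 0.1. Without control replicate 2 the difference was -0.833 peaks. The number of members with a gene-end peak was 8, 9 and 7 in silenced and 8, 7 and 7 in control replicates 1, 2 and 3 (8 ± 1 against 7.33 ± 0.577, SD, n = 3, exact permutation p = 0.7, adjusted p = 0.9). Without silenced replicate 2 the difference fell from 0.667 to 0.167 members, and without silenced replicate 3 it was 1.17.

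By gene, AGPAT3 had 10, 11 and 18 peaks for silenced replicates 1 to 3 and 10 in each control library, the 18 coming from the library with the lowest heights. AGPAT4 had 15, 12 and 11 in silenced and 14, 7 and 12 in control libraries. AGPAT2 had 4, 6 and 5 against 7, 7 and 6, and AGPAT5 had 4, 4 and 1 against 2, 1 and 3. GPAM had 8, 6 and 4 against 5, 3 and 7, GPAT3 had 5, 7 and 4 against 7, 4 and 5, and GPAT4 had 6, 4 and 6 against 7, 5 and 8. AGPAT1 had 4, 3 and 6 against 4 in each control library, and GPAT2 had 1 in each of the 6 libraries. For every gene the 2 groups touched or overlapped. A limma fit of log2(peaks + 1) over 18586 protein-coding genes, centred in each library, called 0 members and 0 genes (0%), with 308 genes higher, 280 lower and 0 members at an unadjusted p under 0.05. Adjusted p-values of the 9 windows were 0.987 to 0.991 in limma.

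**Figure D4:**
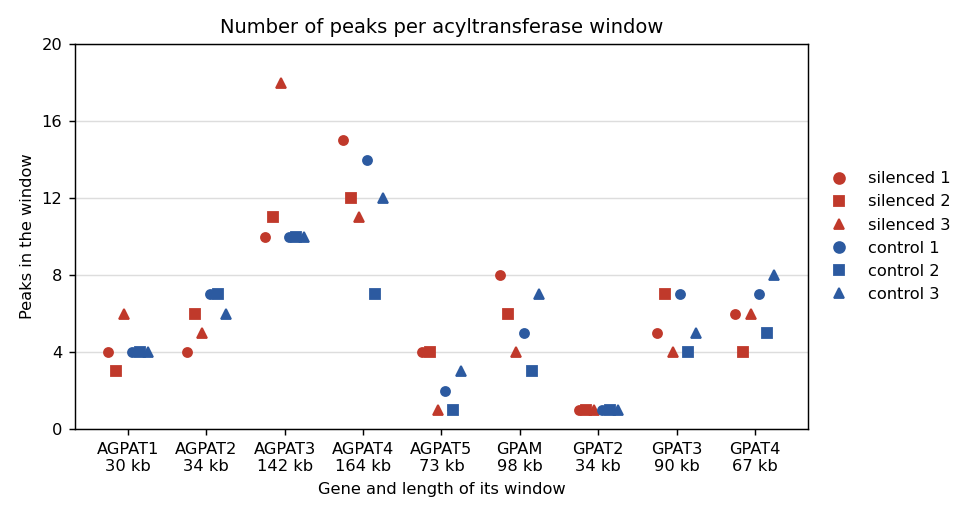
Number of peaks in each window (vertical axis) by gene, with the length of its window below the name. Red points are silenced and blue points control libraries. The longest windows, of AGPAT3 and AGPAT4, hold the most peaks, and GPAT2 holds 1 in every library.

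The family was set beside 36 other genes that supply, bypass or use its products. Every list had a gene-end peak for 28 of them, and it was present in 1 to 5 libraries at 6 and in none at 2, ACSL5 and DGKZ, of which DGKZ had a peak at a listed start in all 6. The 6 were ACSL6, DGKB, DGKG and DGKI, with heights of at most 4, and LPIN1 and PLPP2, with heights of 6 to 16. Of the 28 tested by rank, 0 passed (limma, adjusted p 0.934 to 0.998), 12 scored higher and 16 lower in silenced cells, and the median was -0.0718. At an unadjusted p under 0.05 there were 0 higher and 3 lower of 28, beside 266 higher and 342 lower of all 12004 genes. ACSL4, which activates polyunsaturated fatty acids, stood at -0.442 (SE 0.178) and MBOAT1, a lysophospholipid acyltransferase, at -0.418 (SE 0.175). The diacylglycerol kinase DGKK stood at -0.715 (SE 0.301), and each of the 3 had an adjusted p of 0.934 in limma. The DGKK peak was low, with heights of 5, 6 and 3 in silenced and 9, 20 and 7 in control replicates 1, 2 and 3. These 3 genes were named after their values were seen, and their values without single libraries are not given here. By role, the median difference was -0.207 over the 6 of 8 genes of substrate supply that could be tested and 0.0224 over 5 of 5 other acyltransferases. It was -0.108 over 8 of 12 genes of other routes to phosphatidic acid (diacylglycerol kinases and phospholipases D) and -0.178 over 9 of 11 genes that use it.

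LPIN3 is one of the lipins that turn phosphatidic acid into diacylglycerol. It was the 1 gene of 14944 tested that the peak-number fit called with peaks limited to an FDR of at most 1e-05. Its window then held 0 peaks in each silenced library and 2 in each control library (limma adjusted p = 0.00430). These counts did not vary within a group. The SE of the fit (0.101) thus came from the centring and limma's variance shared over genes, and the p-value measures no spread of this gene's counts. With all peaks the window held 3 in each silenced library and 4, 4 and 6 in control replicates 1, 2 and 3, and the adjusted p was 0.987 (limma). The LPIN3 gene-end heights were 10, 9 and 6 in silenced and 13, 11 and 16 in control replicates 1, 2 and 3, with the lowest value in silenced replicate 3. Every silenced library was thus below every control library in raw height, an order that is no comparison of groups. By rank score this gene end differed by -0.178 (SE 0.243, limma unadjusted p = 0.471).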

How the data were processed

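ATAC-seq peaks of 3 silenced and 3 control libraries were analysed, with groups from the treatment label. The submitters' processing notes name Trimmomatic 0.36, Bowtie2 2.2.6, Picard 2.8.2, MACS2 2.1.1, bedtools 2.25.0 and build GRCh38, with no settings; read shifting and duplicate handling are not given in the sources used here. Per the file headers, the authors deposited for each peak a fold enrichment (ratio), a p-value, an FDR and a pileup signal, here called height. Deposited p-values reached at most 0.00987, whereas the highest deposited FDR was 0.488 to 0.610 by library. Read depth is unknown. The analysis kept chromosomes 1 to 22, X and Y. Gene spans, names and promoters came from RefSeq tables (GRCh38.p14). Of the members, 7 of 9 were matched to listed starts, so both ends of a span stood for the start, as the design provided, within 1 kb; listed starts were added as an alternative after seeing the data. The planned protein motif was not analysed here. Peaks and regions were joined at an overlap of 1 bp. Rank scores and log2 peak numbers (windows with a mean of at least 1 peak) were fitted over all genes or regions with limma 3.58.1 in R 4.3.3 (eBayes with a trend), Benjamini-Hochberg threshold 0.05, after being tested on simulated data. Totals were compared by exact permutation in Python 3.11.15.

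The members and lists were chosen with earlier results of these data known. By rule the text names all members, their start regions, the 3 tallest shared regions elsewhere, group-only regions, the 3 regions of smallest p, pathway genes with a peak in 1 to 5 libraries and those called in any test; other features named were chosen after their values were seen. Lists were also limited by FDR, height or size, and peaks shortened. Libraries share replicate numbers, and pairing was checked.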

Additional observations from a re-analysis of the deposited data

How the results depend on the processing

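The lists give no read depth, so a peak that is not called is below the authors' limit and not at 0. For peaks in the member windows the difference (silenced minus control), 4 in the full lists, reversed to -4 at a height of at least 4 and to -0.333 with equal list sizes. Leaving out 1 library each gave -0.833 to 6.67. For members with a gene-end peak the difference of 0.667 turned to -0.333 for peaks with FDR up to 1e-05, was 0 at listed starts, and ran from 0.167 to 1.17 without single libraries. The 1 group-only region was lost (0) at an FDR of at most 1e-05, at a height of at least 4 and with equal list sizes, and leaving out libraries gave 1 to 4. The causes were not tested.

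The region rank test called 0 regions under each alternative run. The gene-end rank test called 0 under the filters, distances and scales, and 0 to 1 when single libraries were left out, the 1 being RNF125 without silenced replicate 2 (limma adjusted p = 0.00095, against 0.934 with all libraries), named after its values were seen. The peak-number test called 1 gene of 14944, LPIN3, at an FDR of at most 1e-05, and otherwise 0. Over all alternatives 377 to 2656 features had an unadjusted p under 0.05.

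Of the 14 score differences given for single member genes and regions, none was called in 86 fits with other settings or 84 fits without 1 library. With other settings 1 reversed, the GPAM start, to -0.0729 at an FDR of at most 1e-05. Ranked by fold enrichment, the mean gene-end score of AGPAT1 fell from 2.36 to 0.603 in silenced and from 2.30 to 0.459 in control libraries. That of AGPAT4 was then 1.31 and 1.17, whereas AGPAT2, AGPAT5, GPAT3 and GPAT4 stayed below AGPAT1 in both groups. The inner AGPAT1 start fell from 1.52 to -0.255 in silenced and from 1.26 to -0.771 in control libraries. Without single libraries 13 reversed. The ranges were -0.0637 to 0.127 for AGPAT1, -0.0480 to 0.337 for AGPAT4, -0.000968 to 0.389 for AGPAT5 and -0.182 to 0.0936 for GPAT3 at gene ends. They were -0.0693 to 0.549 for the region near PBX2, -0.0186 to 0.417 for the inner AGPAT3 region, -0.114 to 0.144 for the GPAM start and -0.0870 to 0.0524 for the far GPAM region. The other 6 kept their sign but not their size, with ranges of 0.103 to 0.316 for AGPAT2, -0.346 to -0.111 for GPAT2 and -0.439 to -0.0320 for GPAT4 at gene ends, 0.0912 to 0.385 for the inner AGPAT1 start, -0.338 to -0.162 for the GPAT2 region and -0.457 to -0.0269 for the GPAT4 end region.

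With the replicate number as a block the mean differences stayed at 4 peaks and 0.667 members (exact sign-flip p = 1 for both, and this test cannot go below 0.25), and 0 genes, 0 regions and 0 windows were called. Same-numbered libraries did not deviate together, with correlations across genes of 0.00172, -0.0158 and 0.00488, so the numbers were not taken to pair them.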
